A study of Homo sapiens with 6 samples.

Results

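The enzymes of glycolysis and a group of genes that respond to low oxygen were followed in sorted cells of the human colorectal cancer line COLO-320DM. The list held 36 genes, 19 glycolytic enzymes and 17 glucose and lactate transporters, genes of oxygen sensing and other hypoxia-inducible genes. Members were chosen by gene function and matched by symbol to probe sets that the platform annotation assigns to a single gene, and each gene was read from whichever of its probe sets had the largest mean level. In this way 33 of the 36 were found among 19775 genes on the array. SLC16A1 and SLC16A3, which carry lactate across the plasma membrane, and CA9, a carbonic anhydrase of the cell surface, had no probe set with that single symbol in the annotation used and were not analysed here. A gene was tested where its mean was above 5.12 on the log2 scale, the 30th percentile over genes. All 19 enzymes and 12 of the other genes, 31 in all, were among the 13842 genes tested.

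COLO-320DM cells were grown in dishes to near confluency without treatment, sorted by CD44, an adhesion receptor used as a marker of stem-like tumour cells, and profiled on Affymetrix expression arrays. There were 2 groups, CD44-positive and CD44-negative cells, with 3 arrays each, numbered 01 to 03 in both. The study compared these groups to find how the CD44-positive cells differ. Both groups come from 1 cell line, all were untreated, and the labels give no oxygen level and no genetic change for either. The labels do not say that the 3 samples of a group came from separate cultures, so the spread behind the p-values is that of these samples alone and may be technical. Values are log2 levels after RMA, which corrects background, makes the arrays' distributions alike and summarises the probes of a probe set. They are listed in the order 01, 02 and 03, and every difference is CD44-positive minus CD44-negative unless numbers are compared. In such bulk samples fewer cells that express a gene and less RNA per cell cannot be told apart.

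Glycolysis converts glucose to pyruvate in the cytosol and yields ATP without oxygen, and lactate dehydrogenase regenerates the NAD+ it consumes. When oxygen falls, prolyl hydroxylases of the EGLN family no longer mark the HIF alpha subunits for destruction by the VHL complex, and the stabilised factors bind short promoter and enhancer motifs with a core of ACGTG or GCGTG. Many glycolytic genes, glucose transporters and regulators of angiogenesis and mitophagy are known HIF targets, and colorectal tumours commonly have high glycolytic activity.

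Promoters show which members carry that core close to their start. RefSeq promoters (GRCh38.p14) were matched by symbol for 31 of the 36 listed genes, with 58 start sites, and the 250 bases before each start were searched on both strands. ACGTG was found in 36.2% of the member promoters, 21 of 58, against 18.5% of all 35116 promoters. GCGTG was found in 34.5% of them against 32.2% of all. Either motif occurred in 58.6% of member promoters and 43.2% of all promoters, and in at least 1 promoter of 26 of the 31 genes. Genes with several starts have more chances of a match. CACGTG, the E-box bound by MYC and other factors, always contains ACGTG on both strands and was found in 13.8% of member promoters and 6.34% of all. A match is a description and not a shown binding site. The promoters of GPI (chr19:34364742-34364991, plus strand), ALDOC (chr17:28576896-28577145, minus strand), PKM (chr15:72231191-72231440, minus strand), BNIP3 (chr10:131981924-131982173, minus strand) and P4HA1 (chr10:73096867-73097116, minus strand) are shown because these genes differed between replicate numbers, and that of DDIT4 (chr10:72273674-72273923, plus strand) because this gene had the largest difference in size between the sorted groups among tested members. HK2, ALDOA and BNIP3L also differed between replicate numbers and are not shown, as HK2 and ALDOA had several listed starts and BNIP3L had no promoter matched. Each promoter shown is written 5′ to 3′ along the gene's strand. Capitals mark ACGTG or GCGTG on either strand, with CACGT and CACGC being the reverse forms.
GPI: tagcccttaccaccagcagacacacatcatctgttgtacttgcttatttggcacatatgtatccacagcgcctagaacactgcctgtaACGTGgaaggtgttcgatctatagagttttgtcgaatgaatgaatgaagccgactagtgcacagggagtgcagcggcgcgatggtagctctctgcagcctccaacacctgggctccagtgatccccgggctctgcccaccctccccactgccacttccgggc
ALDOC: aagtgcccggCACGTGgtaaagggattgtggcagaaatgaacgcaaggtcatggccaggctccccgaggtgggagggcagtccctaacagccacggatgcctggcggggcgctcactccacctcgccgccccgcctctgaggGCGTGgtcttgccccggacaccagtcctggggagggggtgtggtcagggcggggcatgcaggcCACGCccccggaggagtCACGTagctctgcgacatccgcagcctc
PKM: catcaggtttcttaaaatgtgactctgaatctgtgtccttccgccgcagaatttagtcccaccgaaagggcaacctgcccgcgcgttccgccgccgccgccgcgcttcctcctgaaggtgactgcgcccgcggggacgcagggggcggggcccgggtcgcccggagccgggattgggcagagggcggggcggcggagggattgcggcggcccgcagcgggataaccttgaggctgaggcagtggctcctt
BNIP3: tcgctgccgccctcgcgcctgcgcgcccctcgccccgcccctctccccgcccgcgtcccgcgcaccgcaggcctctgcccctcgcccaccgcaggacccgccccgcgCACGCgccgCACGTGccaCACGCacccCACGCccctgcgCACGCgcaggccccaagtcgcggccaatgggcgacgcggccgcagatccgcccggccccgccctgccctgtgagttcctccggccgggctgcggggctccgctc
P4HA1: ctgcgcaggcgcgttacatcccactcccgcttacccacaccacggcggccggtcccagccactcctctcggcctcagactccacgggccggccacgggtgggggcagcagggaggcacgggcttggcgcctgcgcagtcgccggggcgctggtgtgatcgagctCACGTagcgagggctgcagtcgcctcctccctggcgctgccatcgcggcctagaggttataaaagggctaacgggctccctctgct
DDIT4: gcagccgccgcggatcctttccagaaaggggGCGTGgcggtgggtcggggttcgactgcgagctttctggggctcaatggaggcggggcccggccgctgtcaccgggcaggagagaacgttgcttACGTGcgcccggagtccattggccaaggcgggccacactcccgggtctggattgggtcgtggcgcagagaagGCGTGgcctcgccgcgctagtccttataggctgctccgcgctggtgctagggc
The ALDOC promoter held both motifs and 1 CACGTG, and the BNIP3 promoter 2 matches of ACGTG, which lie within 1 CACGTG read on both strands, and 4 of GCGTG. GPI and P4HA1 each held 1 ACGTG. DDIT4 held 1 ACGTG and 2 GCGTG, and PKM held neither motif in this window.

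The arrays were alike in scale, with median intensities from 44.9 to 46.5 and correlations between arrays from 0.991 to 0.997 over probe sets. CD44 itself was measured at 7.86, 8.12 and 7.11 in CD44-positive and 5.41, 5.29 and 4.99 in CD44-negative cells. The groups did not overlap, and the difference of 2.47 ± 0.24 (SE), 5.54-fold, had limma adjusted p = 0.106 without and 0.00176 with the replicate number as a block. Among colorectal epithelium markers KRT8, KRT18, CDX2, VIL1 and KRT20 were above the dim limit, while EPCAM and CDH1, which define most epithelial cells, were below it. Of the 5 tested, 2 were higher in CD44-positive cells and 3 lower, and none passed. KRT20 was 0.63 higher without overlap (limma adjusted p = 0.298 with the block). EPCAM was below the limit in every array, so that no difference is read from it. Of the markers of other cells, 6 of 10 fibroblast, 3 of 8 leukocyte and 4 of 6 endothelial genes on the array were above the limit, and none of them passed in the comparison of the sorted groups. The fibroblast gene COL3A1 was measured at 11.63, 10.02 and 11.60 in CD44-positive and 10.61, 9.45 and 10.85 in CD44-negative cells, 0.78 higher in CD44-positive cells (adjusted p = 0.0526 in limma with the block). It passed the F test of the replicate number used below, with arrays 02 lowest in both groups (adjusted p = 0.00406, limma). LUM was below the dim limit by its mean, at 5.63, 4.18 and 3.84 in CD44-positive and 2.36, 2.79 and 2.44 in CD44-negative cells. Only CD44-positive 01 exceeded that limit, so that no size of difference is given. The fibroblast genes PDGFRA, FAP and POSTN were below the limit too. Of the 6 fibroblast genes tested, 3 were higher in CD44-positive cells and 3 lower. COL1A1 (-0.23) was lower without overlap. The CD44-negative mean of COL1A2 was 5.09, below the dim limit of 5.12. It entered the test through CD44-positive cells, so that no difference is read from it. The part of these genes in the members' values was not tested.

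No enzyme of glycolysis and no hypoxia-inducible gene passed the test between CD44-positive and CD44-negative cells. The smallest adjusted p over the 31 members was 1.00 in limma without the block and 0.548 with it. The background was also low, at 0% of all genes tested without the block and 0.0578%, 8 genes, with it. At an unadjusted limma p under 0.05, 0 members were called without the block, against 1.97% of all genes. With the block PFKP, ALDOC, BNIP3 and BNIP3L were called, all higher in CD44-positive cells, against 4.24% of all genes called higher, and no member was called lower, against 3.25%. The median 95% confidence interval of a member reached 0.31 to either side of its difference, or 0.17 in the fit with the block. Differences smaller than this were mostly not detectable with 3 arrays a group. These intervals are not adjusted for the number of genes tested, so that larger differences could also fail to pass. That of CD44, 2.47, did not pass without the block.

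More members had a difference above 0 than below it, at small sizes. The difference was above 0 in 22 of 31 members, against 48.9% of all genes. The median difference was 0.037 over the 19 enzymes and 0.089 over the other 12, with -0.0025 over all genes. Within pairs of arrays with the same number, 19, 24 and 23 of 31 members were higher in the CD44-positive array of pairs 01, 02 and 03, against 56.3%, 47.2% and 44.2% of all genes. In all 3 pairs 13 members were higher, against 13.7% of genes, and VEGFA alone was lower, against 14.8%. The enzyme median was -0.017 without CD44-negative array 03, 0.00050 without CD44-positive array 02 and 0.12 without CD44-positive array 03, so that its size and, in the first of these, its sign depended on single arrays. For the other genes it was 0.0031 without CD44-positive array 02. Groups separated without overlap in 1 member, PFKM, which was higher in CD44-positive cells, against 2.82% of all genes; none separated with lower values, against 2.6%.

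**Figure D1:**
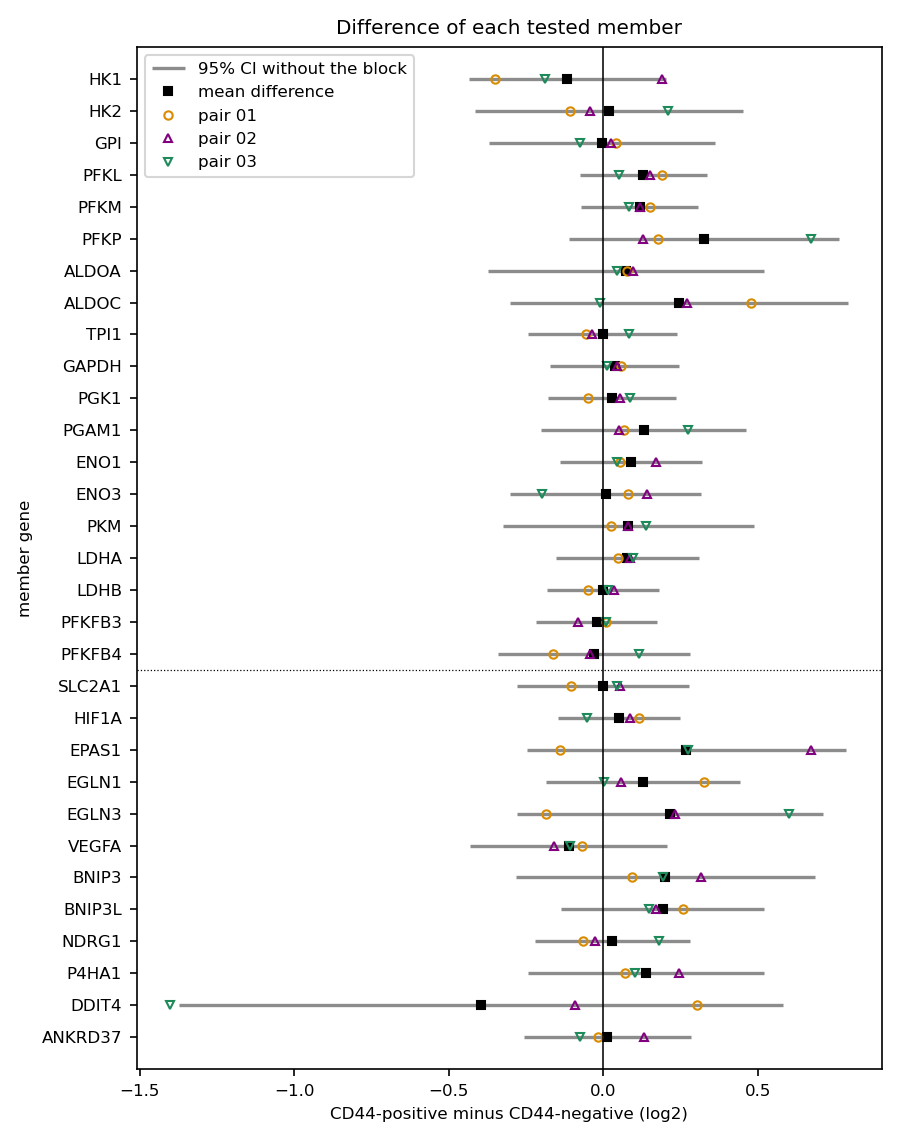
Difference between CD44-positive and CD44-negative cells (log2, x axis) for each of the 31 tested members (y axis), with the mean as a square, its 95% confidence interval from limma without the block as a bar and the 3 same-numbered pairs as open symbols. A dotted line divides the enzymes from the other genes; every interval includes 0, and DDIT4 has the widest, from -1.37 to 0.58.

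Transcripts of the transporters and of the enzymes that act on glucose when it enters the cell did not pass the test. SLC2A1, the basal glucose transporter GLUT1, was measured at 7.31, 7.47 and 7.17 in CD44-positive and 7.42, 7.42 and 7.12 in CD44-negative cells. The groups overlapped throughout, and the difference was -0.0013 ± 0.12 (SE). SLC2A3, the high-affinity transporter GLUT3, was below the dim limit, at 4.01 ± 0.22 and 4.09 ± 0.13 (SD, n = 3). HK1 and HK2 encode the hexokinases that phosphorylate glucose. HK1 was measured at 8.06, 8.10 and 8.17 in CD44-positive and 8.41, 7.91 and 8.36 in CD44-negative cells. CD44-negative cells held both the highest and the lowest array, and the difference was -0.12 ± 0.14 (SE, 95% CI -0.43 to 0.20). HK2, the inducible hexokinase, differed by 0.019 ± 0.19, while its other probe sets above the dim limit gave -0.076 and -0.12. GPI, which isomerises the glucose phosphate, differed by -0.0045 ± 0.16.

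The 3 genes of phosphofructokinase, the main rate-limiting enzyme of glycolysis, were the enzymes with the smallest p-values among those with a difference above 0 in the fit without the block. PFKP, the platelet-type isozyme, was measured at 5.45, 5.44 and 6.15 in CD44-positive and 5.28, 5.31 and 5.48 in CD44-negative cells. CD44-positive array 03 stood above the other 5, which lay between 5.28 and 5.48, close to the dim limit. The difference was 0.33 ± 0.19 (SE, 95% CI -0.11 to 0.76), made of 0.18, 0.13 and 0.67 in pairs 01, 02 and 03. Another PFKP probe set, below the dim limit by its mean, gave -0.012, 0.67 and -0.36, so that pair 03 went the other way. PFKL, the liver-type isozyme, was measured at 7.92, 7.87 and 7.72 in CD44-positive and 7.73, 7.72 and 7.67 in CD44-negative cells. It was higher in the CD44-positive array of every pair, but CD44-positive 03 lay just below CD44-negative 01 and 02, and the difference was 0.13 ± 0.089. PFKM, the muscle-type isozyme, was measured at 11.17, 11.23 and 11.20 in CD44-positive and 11.02, 11.11 and 11.12 in CD44-negative cells. Every CD44-positive array lay above every CD44-negative one, with a difference of 0.12 ± 0.082. The exact permutation p was 0.1 (two-sided), the smallest that 3 against 3 arrays allow. Any gene whose groups do not overlap has this value, so that it adds nothing to the lack of overlap. The gap between the groups was small, from 11.12 to 11.17. In limma it had an adjusted p of 1.00, or 0.775 with the block.

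PFKFB3 and PFKFB4 make and break down the sugar bisphosphate that activates phosphofructokinase, and both are known HIF targets. PFKFB3 was measured at 8.35, 8.26 and 8.24 in CD44-positive and 8.34, 8.34 and 8.23 in CD44-negative cells. All 6 arrays lay close together, and the difference was -0.022 ± 0.085. PFKFB4 was measured at 7.00, 7.23 and 6.95 in CD44-positive and 7.16, 7.27 and 6.84 in CD44-negative cells. The groups overlapped, with both arrays numbered 03 lowest, and the difference was -0.030 ± 0.13.

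**Figure D2:**
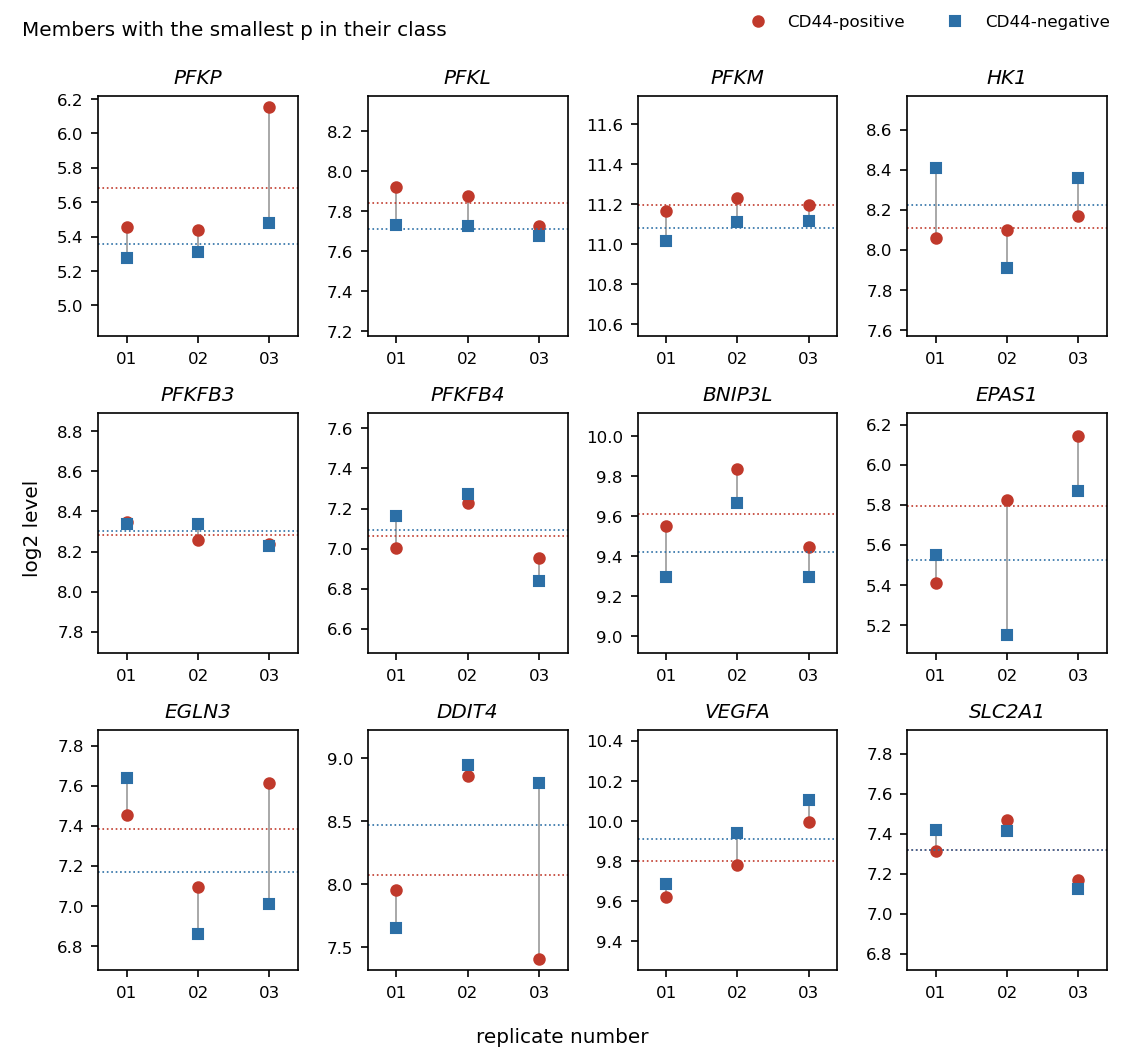
The log2 level (y axis) of 12 members, in each class the 3 with the smallest p and a difference above 0 and the 3 with a difference below 0, by replicate number (x axis) in CD44-positive (circles) and CD44-negative (squares) arrays, with a grey line between arrays of the same number and dotted lines at the group means. The axes start above 0 and differ in position; PFKM is the member whose groups do not overlap, and CD44-positive 03 stands apart in PFKP.

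From aldolase to lactate dehydrogenase the differences ran from -0.0023 to 0.25. ALDOC, the brain-type aldolase, had the largest, 0.25 ± 0.24 (SE), with 0.48, 0.27 and -0.011 in the pairs. ALDOA, the main aldolase of most tissues, differed by 0.072 ± 0.19. TPI1, which interconverts the triose phosphates, differed by -0.0023 ± 0.10, and GAPDH, which oxidises glyceraldehyde phosphate, by 0.037 ± 0.090. Of the enzymes that follow, PGK1, which makes ATP, differed by 0.029 ± 0.090 and PGAM1, the mutase, by 0.13 ± 0.14. The enolases ENO1, found in most cells, and ENO3, typical of muscle, differed by 0.089 ± 0.10 and 0.0074 ± 0.13. PKM, the pyruvate kinase of tumour cells, differed by 0.081 ± 0.18. LDHA, the lactate dehydrogenase subunit that HIF induces, differed by 0.077 ± 0.10, and LDHB by -0.00071 ± 0.079. LDHB was the steadiest member, with a range of only 0.058 over the 6 arrays. At high levels such as those of GAPDH (13.82), LDHA (13.55) and LDHB (13.63) the array scale, which reached about 14.41, can compress differences.

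The 4 genes of oxygen sensing, 2 HIF alpha subunits and 2 prolyl hydroxylases, had mean differences above 0 and none passed the test. HIF1A, the alpha subunit induced acutely by low oxygen, differed by 0.050 ± 0.086 at a level of 11.00 over the 6 arrays. Its activity is set mainly by protein stability, which arrays do not measure. EPAS1, the HIF2 alpha subunit, was measured at 5.41, 5.83 and 6.14 in CD44-positive and 5.55, 5.15 and 5.87 in CD44-negative cells. Pair 01 was lower in the CD44-positive array and the other pairs higher, and the difference was 0.27 ± 0.22 (95% CI -0.25 to 0.78). EGLN1, the main prolyl hydroxylase, differed by 0.13 ± 0.14, with 0.33, 0.059 and 0.0030 in the pairs. EGLN3, a hydroxylase that is itself induced by hypoxia, was measured at 7.45, 7.09 and 7.61 in CD44-positive and 7.64, 6.86 and 7.01 in CD44-negative cells. The highest array of all was CD44-negative 01, and the difference was 0.22 ± 0.21 with pairs of -0.19, 0.23 and 0.60.

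Among the other hypoxia-inducible genes the mitophagy receptors BNIP3L and BNIP3 and the collagen hydroxylase subunit P4HA1 were higher in the CD44-positive array of all 3 pairs. BNIP3L was measured at 9.55, 9.83 and 9.45 in CD44-positive and 9.29, 9.66 and 9.30 in CD44-negative cells. The groups overlapped because CD44-negative 02 lay above CD44-positive 01 and 03. Its difference was 0.19 ± 0.14 (SE), with 0.26, 0.17 and 0.15 in the pairs and a limma adjusted p of 0.575 with the block. That of BNIP3 was 0.20 ± 0.21, with pairs of 0.091, 0.32 and 0.19, and without CD44-positive 02 it was -0.020. P4HA1 differed by 0.14 ± 0.17, with pairs of 0.069, 0.24 and 0.10, NDRG1, a differentiation-related gene that hypoxia induces strongly, by 0.029 ± 0.11, and ANKRD37, a small ankyrin repeat gene, by 0.013 ± 0.12.

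VEGFA, the main angiogenic factor, was measured at 9.62, 9.78 and 9.99 in CD44-positive and 9.69, 9.94 and 10.10 in CD44-negative cells. It was lower in the CD44-positive array of every pair, at -0.068, -0.16 and -0.11, and the groups overlapped. The difference was -0.11 ± 0.14 (95% CI -0.43 to 0.21). ADM, the vasodilator adrenomedullin, was below the dim limit by its mean, at 4.36, 5.69 and 4.80 in CD44-positive and 4.29, 4.86 and 4.41 in CD44-negative cells. Only CD44-positive 02 exceeded that limit, so that no size of difference is given, although the CD44-positive array was the higher in all 3 pairs.

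DDIT4, a stress-induced inhibitor of mTORC1, had the largest difference in size of the 31 tested members. It was measured at 7.96, 8.86 and 7.40 in CD44-positive and 7.65, 8.95 and 8.80 in CD44-negative cells. CD44-positive 03 was the lowest array, arrays 02 of both groups and CD44-negative 03 were the highest, and pair 01 went the other way. The pair differences were 0.30, -0.093 and -1.40, and the mean was -0.40 ± 0.42 (SE, 95% CI -1.37 to 0.58). Its sign turned with array weights and without pair 03 in the fit with the block. In a list of other stress genes, among them targets of ATF4 and glucocorticoids, 19 of 21 were tested, of which 14 had differences below 0 and 5 above, with a median of -0.14, and none passed. The pairs went different ways. In pair 01, 14 of the 19 were higher in the CD44-positive array (median 0.063) and in pair 02 8 of 19 (median -0.020), while in pair 03 only 2 of 19 were, against 44.2% of all genes, with a median of -0.48 and, over all genes, of -0.021. The outermost were ARRDC4, an arrestin-domain gene, at -0.53, CHAC1, a glutathione-degrading enzyme, at -0.31, ATF4 at 0.035 and FKBP5 at 0.088.

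More members passed a test of the replicate number than of CD44 status. In the fit with both terms, 8 of 31 members, 25.8%, passed limma's F test of the replicate number (adjusted p under 0.05), against 10.3% of all genes. These were the enzymes HK2, GPI, ALDOA, ALDOC and PKM and the hypoxia-inducible genes BNIP3, BNIP3L and P4HA1. This comparison was chosen after the data were seen, and the labels do not say what same-numbered arrays share. Without CD44-positive 02 the count was 4, with 7.14% of all genes, and without CD44-negative 02 it was 3, with 5.30%.

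ALDOA was measured at 12.66, 12.75 and 12.16 in CD44-positive and 12.58, 12.66 and 12.11 in CD44-negative cells. Both arrays numbered 03 lay below the other 4, and the level was 0.57 ± 0.081 (SE) higher in number 02 than in 03, 1.48-fold (adjusted p = 0.0103, limma). ALDOC was measured at 8.02, 8.48 and 7.65 in CD44-positive and 7.55, 8.21 and 7.66 in CD44-negative cells. Number 02 was highest in both groups, 0.69 ± 0.12 above 03, 1.62-fold (adjusted p = 0.0186, limma).

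HK2 was measured at 9.73, 9.80 and 9.41 in CD44-positive and 9.84, 9.84 and 9.21 in CD44-negative cells. Its arrays 03 were again the lowest in each group, by 0.51 against 02, 1.43-fold (adjusted p = 0.0252, limma). HK2 had 3 probe sets above the dim limit. Another had arrays 03 lowest, at 7.40, 7.24 and 7.19 in CD44-positive and 7.37, 7.45 and 7.23 in CD44-negative cells. The last had arrays 02 lowest, at 7.32, 7.16 and 7.23 in CD44-positive and 7.43, 7.31 and 7.33 in CD44-negative cells. GPI was measured at 11.49, 11.36 and 10.97 in CD44-positive and 11.45, 11.33 and 11.05 in CD44-negative cells. Its arrays 03 lay below the others, with 0.34 between 02 and 03 (adjusted p = 0.0488, limma). PKM was measured at 9.43, 9.50 and 9.04 in CD44-positive and 9.41, 9.42 and 8.90 in CD44-negative cells. Here too arrays 03 were below the other 4, by 0.49 against 02, 1.41-fold (adjusted p = 0.0169, limma). Another PKM probe set above the dim limit, at a lower level, went the other way, with arrays 03 highest in each group. It read 6.46, 6.70 and 7.07 in CD44-positive and 6.31, 6.69 and 6.90 in CD44-negative cells.

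BNIP3 was measured at 10.94, 11.60 and 10.93 in CD44-positive and 10.85, 11.28 and 10.73 in CD44-negative cells. Number 02 stood above the other numbers in both groups, by 0.61 ± 0.091 over 03, 1.53-fold (adjusted p = 0.0117), and by 0.54 over 01 (adjusted p = 0.0276, limma). BNIP3L, with the array values above, was 0.38 higher in 02 than in 03 (adjusted p = 0.0351, limma). P4HA1 was measured at 9.66, 9.81 and 9.27 in CD44-positive and 9.59, 9.56 and 9.17 in CD44-negative cells. Both arrays 03 were the lowest, by 0.46 against 02, 1.38-fold (adjusted p = 0.0226, limma).

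Between numbers 02 and 03, 9 members were called higher in 02, these 8 and PGAM1 (0.39, adjusted p = 0.0428, limma), against 4.84% of all genes, and no member was called lower, against 5.09%. Between 02 and 01 only BNIP3 was called higher, against 0.824% of genes, and no member lower, against 2.41%. Between 03 and 01 GPI (-0.46), ALDOA (-0.48) and PKM (-0.45) were called lower in 03, against 2.07% of genes, and VEGFA (0.40, adjusted p = 0.0455, limma) higher, against 2.05%. Pairs of numbers share arrays, so that these counts are not separate results.

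**Figure D3:**
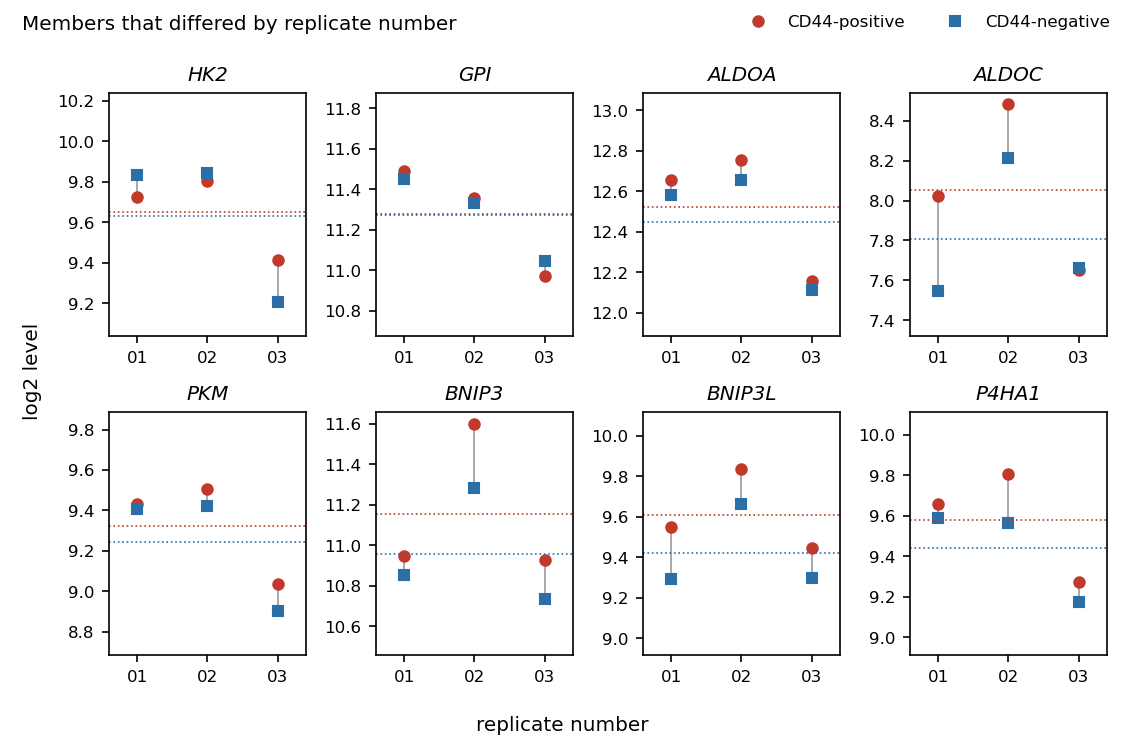
The log2 level (y axis) by replicate number (x axis) of the 8 members that passed the F test of the replicate number, in CD44-positive (circles) and CD44-negative (squares) arrays. The axes start above 0; arrays 03 lie lowest in both groups for HK2, GPI, ALDOA, PKM and P4HA1, and arrays 02 highest in both groups for ALDOC, BNIP3 and BNIP3L.

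Both arrays numbered 03 lay below the other 4 in 16 of 31 members, 13 of them enzymes, against 22.6% of all genes. Both arrays numbered 02 lay above the other 4 in 8 of 31, against 11.1%. LDHB was flat, and HK1, PFKP, ENO3, EPAS1 and VEGFA had their highest mean in number 03, while the EGLN1 and EGLN3 means were lowest in 02. The median range over the 6 arrays was 0.48 for members and 0.35 for all genes. Values of RNA integrity moved with the number as well. The ACTB control probe sets had a 3′ minus 5′ difference of 0.14 and 0.083 in CD44-positive and CD44-negative 03, and from -0.069 to 0.017 in the other 4 arrays. The same difference for the GAPDH controls lay between -0.12 and -0.055 in all 6. The part of these values in the result was not tested.

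**Figure D4:**
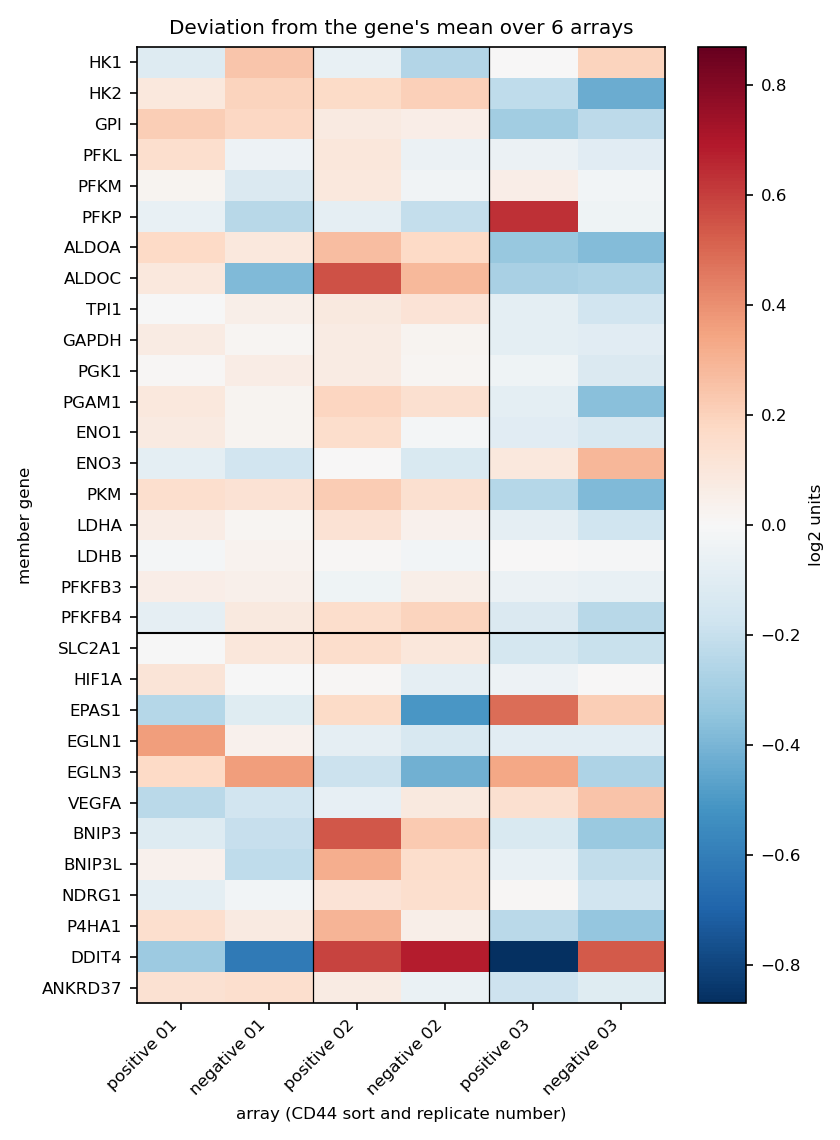
Heat map of the deviation of each tested member (rows) from its own mean over the 6 arrays (columns, grouped by replicate number), in log2 units from blue (below) to red (above), with enzymes over the line and other genes under it. Most enzyme rows are blue in both arrays 03; the enzyme medians are -0.082 in CD44-positive 03 and -0.14 in CD44-negative 03 and lie above 0 in the other 4 arrays.

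Further genes of the same pathways, from lists beside the members, also held no call between the sorted groups. No gene passed among 10 tested remaining glycolytic isozymes and branch enzymes (6 above 0 and 4 below, median 0.033), 13 regulators of the HIF pathway (6 and 7, median -0.0013) and 34 further hypoxia-inducible genes (22 and 12, median 0.050). Among the isozymes ADPGK, an ADP-dependent glucokinase, had the lowest difference, -0.071. ENO2, the neuronal enolase, had the highest mean difference and was measured at 4.79, 6.58 and 4.88 in CD44-positive and 4.01, 6.36 and 4.43 in CD44-negative cells. Only its arrays 02 were above the dim limit, so that it entered the test through these arrays and no size of difference is given. Among regulators EP300, a coactivator of HIF, was highest at 0.22 and ARNT, the constitutive partner subunit, lowest at -0.13. Of the further hypoxia-inducible genes CXCR4, a chemokine receptor, was highest at 0.32. RAB20, a small GTPase, was lowest at -0.15, with CD44-positive arrays 01 and 03 below the dim limit. Between numbers 02 and 03, 6 of these 34 were called higher in 02 and 5 lower, so that calls went both ways, as they did over all genes.

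Several members have more than 1 probe set, which can be read against each other. Of 71 probe sets of members 59 were above the dim limit, and 15 members had more than 1 above it. In 9 of these 15 all probe sets gave the same sign of difference, among them BNIP3 (0.20 and 0.21), EGLN1 (3 probe sets, 0.13 to 0.18) and PGK1 (6 probe sets, 0.0067 to 0.20). BNIP3L kept its sign too, at 0.19 and 0.077, but its other probe set was lower in CD44-positive 03 than in CD44-negative 03, by -0.097. VEGFA did not hold its sign, with 3 of 4 probe sets below 0 and 1 above, from -0.11 to 0.058. ENO1 ran from -0.16 to 0.089 over 4 probe sets. Probe sets of GAPDH, PGK1, LDHB and ENO1 can also bind transcripts of their many processed pseudogenes, which leaves the levels of these genes uncertain.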

How the data were processed

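Affymetrix arrays were hybridised with biotin-labelled RNA of sorted COLO-320DM cells, 3 for each CD44 status, per the labels. The deposited values are linear intensity values to which the authors had applied RMA, per the submitters' processing notes; which version ran is not given in the sources used here. Log2 values had been assumed in the design, so log2 of the deposited intensity was taken, with no pseudocount. RMA compresses differences near background and near saturation, and the number of arrays limits the precision.

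Of 54675 probe sets, 62 were controls, 41091 had 1 gene in the platform annotation and 1801 had several. Symbols were updated through the RefSeq table for 41037. Each of 19775 genes was read from the probe set with the highest mean, and genes under the 30th percentile were left out. No sample column was left unmapped and no array left out.

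All tested genes were fitted with limma 3.58.1 in R 4.3.3 (lmFit, eBayes; p-values two-sided, adjusted by Benjamini-Hochberg, threshold 0.05), and single members by an exact permutation test. The fits were tested on simulated data. Tables and figures used Python 3.11.15, pandas 2.3.3, numpy 2.4.6 and matplotlib 3.10.9. The members and lists were chosen with earlier results of these data known. Every member is named. Given array by array are CD44, members that pass, members whose groups do not overlap, and in each class the 3 with the smallest p in each direction. ADM, LUM, PDGFRA, FAP, POSTN and the members that passed the F test of the replicate number were added after the data were seen. Genes of other lists are named where they pass, otherwise the 2 outermost in each direction, of which the text gives some.

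Labels share the numbers 01 to 03 between groups but name no common culture or day, so pairing rests on the data alone. Deviations from group means correlated at 0.465, 0.689 and 0.626 between same-numbered arrays, and from -0.496 to -0.107 between others. Such deviations cancel out within a group for each gene. Positive values between same-numbered arrays therefore push the others to the negative side, and these are not separate evidence of pairing. Alternatives covered the block, normalization, dim filter, probe set choice, moderation, array weights and arrays left out.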

Additional observations from a re-analysis of the deposited data

How the results depend on the processing

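No member passed the comparison of sorted groups under any of the alternatives run, the smallest adjusted p being 0.132 (limma) without pair 03 in the fit with the replicate block. Over all genes 0 passed, against 273 at an unadjusted p under 0.05. With the replicate block 8 passed, without the dim filter 2, with probe sets lacking the _s_at, _x_at or _a_at suffix 1, with array weights 1, with 1 array left out 0 to 1, and without pairs 01, 02 and 03 (with the block) 10, 63 and 127. The enzyme median ran from -0.017 to 0.12 with 1 array left out and was 0.071 without pair 01, and that of the other genes from 0.0031 to 0.11 with 1 array left out. Members without overlap numbered 2 after quantile normalization, 0 with probe sets lacking those suffixes, 1 to 8 with 1 array left out, and 4, 4 and 11 without pairs 01, 02 and 03, where fewer arrays separate more easily; the share of all genes without overlap was 6.21%, 5.69%, 10.2% to 19.0%, and 21.8%, 22.0% and 28.1% in the same order, against 5.43% with all arrays. Tests of the replicate number, added after the data were seen, called 8 members, 5 without the dim filter, 5 with the mean of all probe sets, 4 with probe sets lacking the suffixes (of 16 tested), 16 with a variance trend and robust moderation, 3 to 10 with 1 array left out, and 11, 5 and 4 without pairs 01, 02 and 03; the share of all genes then ran from 3.77% without the dim filter to 22.7% with the trend. Where not stated, the cause was not tested. With the block PFKP, ALDOC, BNIP3 and BNIP3L had an unadjusted p under 0.05, and none without; it changed no member's call by adjusted p, and paired sign flips over 3 pairs cannot go below 0.25. Signs of single members turned in at most 8 of 31 under any setting, without CD44-negative 03. Signal near background limits PFKP, EPAS1, SLC2A3, ADM, ENO2, FBP1, COL1A2, EPCAM, LUM and RAB20.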

Other observations

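Enzymes that run beside or against glycolysis were read in the same way. Of 15 gluconeogenic and pentose phosphate enzymes 12 were tested, 4 with a difference above 0 and 8 below, with a median of -0.023, and none passed (limma). FBP1, which reverses the phosphofructokinase step, was measured at 5.06 ± 0.11 in CD44-positive and 5.26 ± 0.13 in CD44-negative cells (SD, n = 3). The mean of the first group was below the dim limit of 5.12, so that the gene entered the test through the second group and no difference is read from it. G6PC3, a glucose phosphatase, had the highest difference, 0.077. RPIA, which interconverts pentose phosphates, differed by -0.055.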
